A study of Mus musculus with 14 samples.

Results

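The genes described are 9 members of the forkhead family of transcription factors: Foxa1, Foxa2, Foxa3, Foxc1, Foxc2, Foxd3, Foxf1, Foxh1 and Foxo1. They were found as the probe sets that the platform annotation assigns to a single one of these symbols, and a gene with several was represented by the one whose 14-array mean was highest. All 9 were measured, out of 19938 genes in all and 43 forkhead genes, and only Foxf1 had more than 1 such probe set.

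The samples were embryoid bodies, aggregates of differentiating mouse embryonic stem (ES) cells in which the germ layers begin to form, each profiled on 1 Affymetrix array. Doxycycline switched on ER71 (encoded by Etv2), GATA2 and Scl (encoded by Tal1), factors of the earliest blood and vessel precursors. The sample titles and the genotype of the induced samples name all 3 factors, whereas the descriptions leave out Scl. The series concerns the genes and pathways downstream of these factors as cells become hemangioblasts, which give rise to both blood and endothelium.

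Induced samples (genotype given as co-expression of ER71/Etv2, GATA2 and Scl) received 1 µg/ml doxycycline from day 2 and comprised 1 array at 6 h (day 2.25), 3 arrays at 12 h (day 2.5) and 3 arrays at 24 h (day 3). Controls, whose genotype is labelled wild-type, received none and were taken on the same days (1, 3 and 3 arrays). Replicates 1 and 2 came from the line iEGS and replicate 3 from a line named iB1, so a difference between these lines and a difference of replicate 3 cannot be told apart. Control and induced samples of a replicate carry the same line name, and untransduced cells given doxycycline were not analysed here. All cells had been kept on PMEF feeder cells before differentiation. The tissue label reads embryonic stem cell, but in the controls the summed linear signal of 7 primitive streak markers was 3255 to 3902 on day 3. It was 1404 to 2240 on day 2.5 and 1511 on day 2.25 (1 array). For 8 markers of undifferentiated ES cells the sum was 1156 on day 2.25, 517 to 1062 on day 2.5 and 538 to 801 on day 3. The last 2 ranges overlap, and of these 8 markers Tbx3 alone was called between those days, higher on day 3.

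Forkhead proteins bind DNA through a winged-helix domain that they all share. Proteins of the FoxA class open closed chromatin, and in the mouse embryo Foxa2 marks and is needed for the node, the notochord and the definitive endoderm, all derived from the anterior primitive streak. Foxh1 carries the Nodal signal to its targets together with Smad proteins, Foxd3 maintains the epiblast, the FoxC proteins act in paraxial mesoderm and vessels, Foxf1 in lateral plate mesoderm, and Foxo1 is a transcription factor held out of the nucleus by AKT.

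The deposited values are RMA signals on a log2 scale, so a difference of 1 is a 2-fold change of signal, and low signals are compressed towards a floor. The 40th percentile of mean signal over all genes was 4.95. Foxa2, Foxd3, Foxf1, Foxh1 and Foxo1 had means above it, and Foxa1, Foxa3, Foxc1 and Foxc2 below it. Array medians ran from 5.11 to 5.35, and the spread over genes was narrowest on the 24 h array of replicate 3 (SD 1.91, against 2.04 to 2.23 on the others). The induced factors were higher on every induced array than on any control array. The tests below come from 1 limma fit over the 12 arrays of the groups with 3 replicates, with p-values adjusted over all 19938 genes and a call at an adjusted p under 0.05, and each ± is a standard error unless SD is stated.

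At 12 h of induction, 2 of the 9 genes passed the test, Foxa2 and Foxd3, both lower in induced cells. Over all genes tested, 0.577% were called lower and 0.813% higher in that comparison. At 24 h the same pair was lower again and Foxc1 was lower too, so 3 of 9 were called lower and 0 higher, where 3.43% of all genes were called lower and 2.03% higher. Of the 9 genes Foxa2 had the largest difference at both times. With the replicate number as a block in the fit, 5 of the 9 were called at 24 h, since Foxa1 (lower) and Foxc2 (higher) joined. Without the induced 24 h array of replicate 3 the number at 24 h was also 5, but for another set of genes. These were Foxa2, Foxd3, Foxc2, Foxf1 and Foxo1, while Foxa1 and Foxc1 were not called there. At 12 h the number of calls was 2 in each fit that left out arrays.

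**Figure D1:**
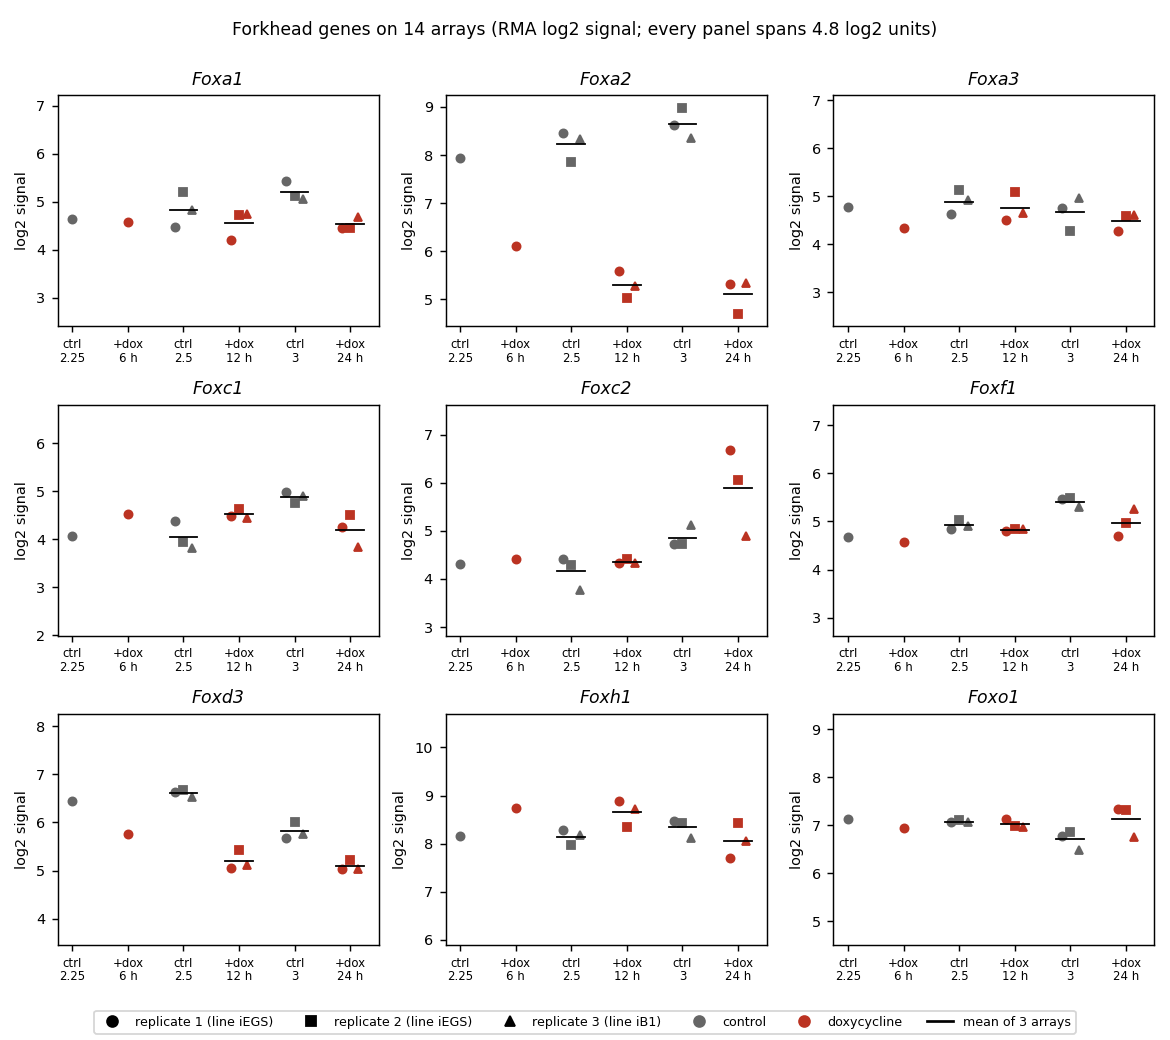
Log2 signal (vertical axis) of each of the 9 genes on every array, by group along the horizontal axis (control day, or hours of doxycycline). Each point is 1 array, its shape the replicate, and bars are means of 3 arrays. Foxa2, Foxd3, Foxc1 and Foxf1 separate control from induced arrays within day 2.5 and within day 3. For Foxf1 the gap is narrow, and for Foxc1 the direction differs between the days. Foxc2 is high on 2 of the 3 induced 24 h arrays.

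**Figure D2:**
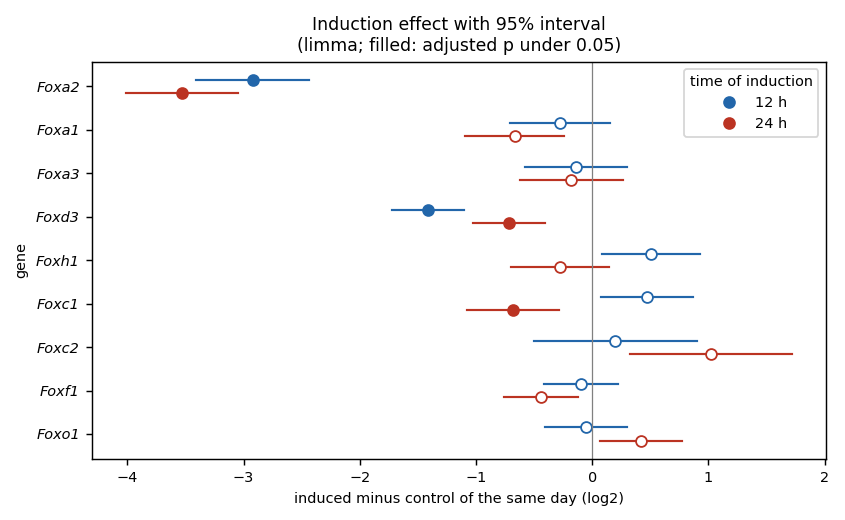
Difference in log2 signal between induced and control arrays of the same day (horizontal axis) for each gene, with the 95% interval from limma (n = 3 arrays per group); filled points have an adjusted p under 0.05. Foxa2 stands at -2.92 after 12 h and -3.53 after 24 h, and the other 8 genes lie between -1.41 and 1.02.

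Foxa2 was the forkhead gene with the strongest response. Its log2 signal was 7.94 in the day 2.25 control and 6.11 after 6 h of induction. The day 2.5 controls read 8.47, 7.86 and 8.33 for replicates 1 to 3, and the 12 h arrays 5.58, 5.03 and 5.29. The day 3 controls read 8.62, 8.98 and 8.35, and the 24 h arrays 5.32, 4.70 and 5.33. Every induced array was below every control array, with more than 1 log2 unit between the lowest control and the 6 h array. At 6 h Foxa2 was 3.57-fold lower, the only 1 of the 9 genes to differ at least 2-fold at that time, when 0.135% of all genes were that much lower and 0.221% higher; with 1 array per group this has no replicate check.

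After 12 h Foxa2 fell by 2.92 ± 0.226, which is 7.58-fold (limma, adjusted p = 7.51e-06). After 24 h it fell by 3.53 ± 0.226, or 11.5-fold (limma, adjusted p = 3.10e-07). Within replicates 1 to 3 the differences were -2.89, -2.83 and -3.05 at 12 h, and -3.30, -4.28 and -3.01 at 24 h. Both calls were kept in all 25 alternative fits, where the highest adjusted p was 0.00415 at 12 h and 2.25e-04 at 24 h (limma). In order of group mean the signal was 8.65 ± 0.319 (SD, n = 3) in day 3 controls, 8.22 ± 0.316 in day 2.5 controls, 7.94 and 6.11 on the arrays of day 2.25 (control, then induced), 5.30 ± 0.274 at 12 h and 5.12 ± 0.359 at 24 h. The control days did not pass the test against each other (0.43 higher on day 3, limma adjusted p = 0.863), and neither did the induced times (-0.18, adjusted p = 0.808). The effect at 24 h minus that at 12 h was -0.61, with a 95% interval from -1.29 to 0.08 (limma, adjusted p = 0.937). The induced means lie close to the 40th percentile of all genes, where RMA signals are compressed. In such bulk samples fewer cells that express a gene and less RNA per cell cannot be told apart.

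The upstream sequences of Foxa2 and Foxd3 are shown because these genes were lower together under induced GATA and ETS factors. RefSeq lists 3 start sites for Foxa2, all on the minus strand of chromosome 2 in GRCm38.p6. The 250 bases before the first of them (chr2:148046970-148047219) and the last (chr2:148045465-148045714), and those before the start of Foxd3 on the plus strand (chr4:99656049-99656298), read 5′ to 3′ as follows, with a match to the GATA factor motif AGATAA in capitals.
Foxa2 first start: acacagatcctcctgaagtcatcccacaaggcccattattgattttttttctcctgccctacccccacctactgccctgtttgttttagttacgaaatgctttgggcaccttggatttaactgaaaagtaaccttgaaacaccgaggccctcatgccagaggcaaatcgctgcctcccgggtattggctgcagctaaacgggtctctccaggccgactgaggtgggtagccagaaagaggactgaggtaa
Foxa2 last start: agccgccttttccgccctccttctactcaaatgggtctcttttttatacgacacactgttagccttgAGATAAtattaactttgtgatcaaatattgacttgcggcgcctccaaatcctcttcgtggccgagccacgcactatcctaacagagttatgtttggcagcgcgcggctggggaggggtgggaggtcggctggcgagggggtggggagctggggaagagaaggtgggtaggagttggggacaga
Foxd3 start: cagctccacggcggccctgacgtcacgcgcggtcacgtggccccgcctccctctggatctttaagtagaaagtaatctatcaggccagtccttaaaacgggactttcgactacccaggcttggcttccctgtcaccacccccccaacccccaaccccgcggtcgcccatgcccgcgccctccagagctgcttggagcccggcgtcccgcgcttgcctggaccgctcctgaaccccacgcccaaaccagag
Promoters were taken from 250 bases before to 50 after each start, 300 bases in all, and 6 of the 9 genes had an entry. Foxc2, Foxf1 and Foxh1 had no entry. Both strands were searched for this motif and for a forkhead motif (TGTTTAC). A common ETS motif (CCGGAAG), an E-box (CAGCTG) and the motif of the FOXH1 protein (AATCCACA) were searched in the same way, and the matches found do not overlap. The GATA motif was found once among the promoters of these genes, at position -183 from the last start of Foxa2, and it occurs in 11.2% of 32851 RefSeq promoters. The forkhead motif was found on the minus strand at position -141 of Foxa1 and occurs in 3.65% of promoters. The ETS motif (8.86% of promoters), the E-box (16.3%) and the FOXH1 motif (0.855%) were not among the letters of these windows. A match describes these letters alone.

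Foxa1 and Foxa3, which act with Foxa2 in endoderm and liver, had low signals. The day 3 controls of Foxa1 read 5.43, 5.11 and 5.06 and the 24 h arrays 4.45, 4.46 and 4.69, so these groups did not overlap. The difference was -0.67 ± 0.200 (limma, adjusted p = 0.0768) and passed the test with the replicate number as a block (limma, adjusted p = 0.0374). It passed too without the day 2.5 control of replicate 1 (limma, adjusted p = 0.0484) or replicate 2 (just under the threshold), after quantile normalization again (0.0147) and with arrays centred on their medians (0.0378). At 12 h Foxa1 arrays overlapped, at 4.47, 5.20 and 4.84 in controls against 4.20, 4.73 and 4.74 (-0.28, limma adjusted p = 0.999). Foxa3 lay between 4.27 and 5.13 on all 14 arrays, its groups overlapped at both times, and its differences were -0.14 at 12 h and -0.18 at 24 h (95% intervals -0.58 to 0.30 and -0.62 to 0.26).

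Genes of the anterior streak, node and endoderm, the territory of Foxa2, were counted beside it. Of 21 measured among 22 listed (T was not matched), 4 were lower and 1 higher at 12 h, and 12 lower and 1 higher at 24 h. Their median difference was -0.20 at 12 h and -1.18 at 24 h, against -0.0087 and -0.0040 over all genes. Calls over all genes came to 0.577% lower and 0.813% higher at 12 h, and 3.43% lower and 2.03% higher at 24 h. Cer1, a secreted inhibitor of Nodal and Wnt, fell most, by 5.28 ± 0.319 at 24 h (limma, adjusted p = 2.13e-07). Lhx1, a homeobox factor of the organizer, fell by 3.96 ± 0.300 (adjusted p = 1.35e-06), and the streak factors Mixl1 and Eomes fell by 3.84 ± 0.254 and 3.08 ± 0.202. At 12 h the 4 largest calls were Hhex, an endoderm and blood-vessel homeobox gene that rose by 2.32 ± 0.213 (limma, adjusted p = 3.23e-05), the hormone precursor Trh (-2.30 ± 0.210), Mixl1 (-1.74 ± 0.254) and Nodal (-0.97 ± 0.187). With the replicate block 7 were lower and 2 higher at 12 h, and 2 were lower without the day 2.5 control of replicate 1 or 3 or the 12 h array of replicate 2 or 3. In control cells 9 of the 21 were higher on day 3 than on day 2.5 and 0 lower, where 0.562% of all genes were called higher.

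Foxd3, a repressor that maintains the epiblast and ES cells and later marks neural crest, was lower in induced cells on both days. It read 6.45 in the day 2.25 control and 5.75 after 6 h. On day 2.5 the controls read 6.63, 6.67 and 6.52 and the 12 h arrays 5.05, 5.43 and 5.12. On day 3 the controls read 5.68, 6.01 and 5.75 and the 24 h arrays 5.03, 5.21 and 5.03. Controls stood above induced arrays on each day without overlap, and the day 3 controls lay below all day 2.5 controls and above all 12 h and 24 h arrays. The 6 h array was within the range of the day 3 controls. Foxd3 fell by 1.41 ± 0.145 at 12 h, or 2.66-fold (limma, adjusted p = 8.83e-05), and by 0.72 ± 0.145 at 24 h, or 1.65-fold (limma, adjusted p = 0.00703). The 12 h call held in all 25 alternative fits (highest adjusted p = 0.0182). The 24 h call was lost with array weights (limma, adjusted p = 0.0917), against a minimum change of 0.5, and without all arrays of replicate 2 (0.113) or of replicate 3 (0.136).

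In controls Foxd3 fell by 0.80 ± 0.145 from day 2.5 to day 3 (1.74-fold; limma, adjusted p = 0.0168), the 1 call among the 9 genes in that comparison, where 0.196% of all genes were called lower. That call was lost without any 1 of the day 2.5 controls (limma, adjusted p = 0.0553 to 0.0876) and without the day 3 control of replicate 1 (0.0889) or replicate 3 (0.101). In induced cells it differed by -0.11 from 12 h to 24 h (limma, adjusted p = 0.824). The effect at 24 h minus that at 12 h was 0.69, with a 95% interval from 0.25 to 1.13 (limma, unadjusted p = 0.00454, adjusted p = 0.314).

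Of 20 genes of naive and epiblast pluripotency, 6 were lower and 1 higher at 12 h, and 11 lower and 1 higher at 24 h, with median differences of -0.37 and -0.65. The shares over all genes were 0.577% lower and 0.813% higher at 12 h, and 3.43% lower and 2.03% higher at 24 h. From day 2.5 to day 3 in controls they were 0.196% lower and 0.562% higher. The epiblast growth factor Fgf5 fell by 1.78 ± 0.177 at 12 h and by 3.63 ± 0.177 at 24 h (limma, adjusted p = 6.23e-05 and 2.27e-08). Nanog, a core pluripotency factor, fell by 1.62 ± 0.168 at 12 h, and the adhesion gene Cdh2 by 3.41 ± 0.224 at 24 h. Zic2, a zinc finger factor of epiblast and neural plate, fell by 1.29 ± 0.212 and 2.69 ± 0.212. The higher gene was Tbx3 at both times (1.26 ± 0.160 at 12 h). In controls 2 of the 20 were higher on day 3 than on day 2.5, Cdh2 (1.72 ± 0.224; limma, adjusted p = 0.00160) and Tbx3 (1.32 ± 0.160), and Utf1 was lower (-1.16 ± 0.217). Of 8 neural and neural crest markers 0 were called at 12 h and Nes alone was lower at 24 h (-1.18 ± 0.286; limma, adjusted p = 0.0242).

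Foxh1, the DNA-binding partner of Smad2 and Smad4 in Nodal signalling, read between 7.69 and 8.89 on all arrays. It was at 8.15 in the day 2.25 control and 8.74 after 6 h. Controls of day 2.5 read 8.28, 7.96 and 8.18 and the 12 h arrays 8.89, 8.34 and 8.71. All 12 h arrays stood above the controls, yet the difference of 0.51 ± 0.196 did not pass the test (limma, adjusted p = 0.470). At 24 h the arrays read 7.69, 8.43 and 8.06 against 8.47, 8.43 and 8.13 in controls, which overlapped (-0.28 ± 0.196; limma, adjusted p = 0.542). Its 95% interval at 24 h ran from -0.70 to 0.14, and at 12 h from 0.09 to 0.93. The effect at 24 h minus that at 12 h was -0.79, with a 95% interval from -1.38 to -0.19 (limma, unadjusted p = 0.0132, adjusted p = 0.561).

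Other Nodal pathway genes, upstream and downstream of Foxh1, were counted beside it. Of 20 measured, 4 were lower at 12 h and 8 at 24 h, and 0 were higher at either time. The median difference was -0.11 at 12 h and -0.38 at 24 h. Among all genes 0.577% were called lower and 0.813% higher at 12 h, and 3.43% lower and 2.03% higher at 24 h. The counts of 0 higher lie near those shares. Between the control days 0.562% of all genes were called higher on day 3 and 0.196% lower. Fst, which encodes the activin inhibitor follistatin, fell by 2.59 ± 0.192 and 4.55 ± 0.192 (limma, adjusted p = 4.80e-06 and 5.52e-09). Lefty1, a feedback inhibitor, fell by 1.54 ± 0.231 at 12 h, the ligand gene Nodal by 0.97 ± 0.187 and the co-receptor gene Tdgf1 by 0.64 ± 0.133. At 24 h the co-receptor genes Cfc1 and Tdgf1 fell by 2.45 ± 0.170 and 2.17 ± 0.133, and Lefty2 by 1.99 ± 0.274. In controls Cfc1 rose from day 2.5 to day 3 by 2.46 ± 0.170 (limma, adjusted p = 7.73e-06), while Gdf3 and Lefty1 fell by 1.33 ± 0.219 and 1.15 ± 0.231, and these were the 3 calls of the list in that comparison. The 12 h count was 2 without the day 2.5 control of replicate 1 or 3 or the 12 h array of replicate 2 or 3, and 1 gene was higher at 24 h without the 24 h array of replicate 3.

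Foxc1 and Foxc2, close relatives that share roles in somites, heart and vessels of the mouse embryo, both had mean signals below the 40th percentile of all genes. Foxc1 read 4.07 in the day 2.25 control and 4.52 after 6 h. The day 2.5 controls read 4.39, 3.95 and 3.82, the 12 h arrays 4.49, 4.64 and 4.43. Controls of day 3 read 4.98, 4.76 and 4.90, the 24 h arrays 4.25, 4.51 and 3.84. Induced arrays were above controls at 12 h and below them at 24 h, without overlap on either day, all at low signal. At 12 h the difference was 0.47 ± 0.185 (limma, adjusted p = 0.485), and at 24 h Foxc1 fell by 0.68 ± 0.185, or 1.60-fold (limma, adjusted p = 0.0465).

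The Foxc1 call at 24 h lay at the threshold. It held in 6 of 24 alternative fits, among which the adjusted p ranged from 0.0162 up to 1.0 in the test against a minimum change. Of the 12 single arrays it was kept without only 3, the day 2.5 control of replicate 1 and the 24 h arrays of replicates 1 and 2. The adjusted p was 0.0533 to 0.0685 without any of the other 5 arrays of day 2.5, 0.0849 to 0.177 without a day 3 control, and 0.165 without the 24 h array of replicate 3, where the difference was -0.50 (limma). The change of the effect from 12 h to 24 h was -1.15 ± 0.261 (limma, adjusted p = 0.0952), and it passed with the replicate block (adjusted p = 0.0279), and without the day 2.5 control of replicate 1 (0.0401). The rise in controls from day 2.5 to day 3, 0.83 ± 0.185 in size (limma, adjusted p = 0.0596), also passed with the block (0.0149). It passed too without the day 2.5 control of replicate 1 (0.0257) and without the 24 h array of replicate 1 (0.0450) or 3 (0.0213).

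Foxc2, also known as a partner of Etv2 at endothelial enhancers and as a factor of lymphatic vessels, read 4.30 in the day 2.25 control and 4.42 after 6 h. On day 2.5 the controls read 4.42, 4.30 and 3.76 and the 12 h arrays 4.34, 4.41 and 4.33, which overlap. The day 3 controls read 4.73, 4.73 and 5.12 and the 24 h arrays 6.68, 6.06 and 4.90. Both iEGS arrays were above all controls at 24 h, and the iB1 array lay inside the control range. The difference at 24 h was 1.02 ± 0.326 (2.03-fold; limma, adjusted p = 0.101), and within replicates it was 1.96, 1.33 and -0.22. With the replicate block the adjusted p was 0.0369. Without the 24 h array of replicate 3 the difference was 1.51 (limma, adjusted p = 8.11e-04), and without all arrays of replicate 3, which leaves the line iEGS alone, it was 1.64 (0.00311). Without the 24 h array of replicate 1 it was 0.62 (limma, adjusted p = 0.159), and without all arrays of replicate 1 it was 0.55 (0.288).

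From 12 h to 24 h of induction Foxc2 rose by 1.52 ± 0.326, or 2.87-fold (limma, adjusted p = 0.0285), the 1 call among the 9 genes in that comparison, where 0.557% of all genes were called higher. All 24 h arrays were above all 12 h arrays. The call was lost without any 1 of the 12 h arrays (adjusted p = 0.0990 to 0.111) or without the 24 h array of replicate 2 (0.0992), and in the fit of the compared groups only (0.137). The effect of 24 h minus that of 12 h was 0.82 for Foxc2, with a 95% interval from -0.17 to 1.81 (limma, adjusted p = 0.975).

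Endothelial genes that carry FOX:ETS enhancers, at which forkhead and ETS proteins bind side by side, were counted beside Foxc2. Of 15 measured, 8 were higher and 0 lower at 12 h, and 9 higher and 1 lower at 24 h. The others did not pass the test. Over all genes 0.813% were called higher at 12 h and 2.03% at 24 h. Called lower at 24 h were 3.43%, and 0.562% were called higher on day 3 than on day 2.5 in controls. The higher counts and the medians include Tal1 at both times. Doxycycline itself switched Tal1 on, so its calls follow from the design. The median difference was 0.89 at 12 h and 1.11 at 24 h. Fli1, an ETS factor of blood and vessels, rose by 2.85 ± 0.170 at 12 h and by 4.27 ± 0.170 at 24 h (limma, adjusted p = 6.86e-07 and 4.50e-09). Tal1, itself an induced factor, rose by 2.48 ± 0.239 at 12 h, Kdr, the main VEGF receptor, by 1.96 ± 0.264, and the angiopoietin receptor Tek by 1.53 ± 0.296. At 24 h Tek rose by 4.10 ± 0.296 and Cdh5, the endothelial cadherin, by 3.42 ± 0.230. In controls Kdr was higher on day 3 than on day 2.5 by 2.02 ± 0.264 (limma, adjusted p = 0.00160) and Nrp1 by 1.55 ± 0.252, and the other 13 passed no test in that comparison. The higher count at 12 h was 3 without the 12 h array of replicate 1, 4 without the day 2.5 control of replicate 3, and 5 without the day 2.5 control of replicate 2 or the 12 h array of replicate 3. The lower gene at 24 h, Foxp1, is a forkhead gene described with its family further on.

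Among 18 paraxial mesoderm genes, the other territory of Foxc1 and Foxc2, 2 were lower and 0 higher at 12 h, and 8 lower and 1 higher at 24 h. The median difference was -0.14 at 12 h and -0.13 at 24 h. All-gene shares were 0.577% lower and 0.813% higher at 12 h, and 3.43% lower and 2.03% higher at 24 h. Mesp1, the earliest mesoderm bHLH factor, fell by 1.80 ± 0.232 at 12 h and by 4.36 ± 0.232 at 24 h (limma, adjusted p = 5.81e-04 and 5.41e-08). Pdgfra, a receptor of paraxial mesoderm, fell by 2.78 ± 0.211 at 24 h, Mesp2 by 1.88 ± 0.174 and Msgn1 by 1.43 ± 0.191. In controls 7 of the 18 were higher on day 3 and 0 lower, where 0.562% of all genes were called higher and 0.196% lower. With the replicate block 1 gene was higher at 12 h. The other call at 12 h was the Notch ligand gene Dll3 (-0.74 ± 0.172; limma, adjusted p = 0.0485), and the higher gene at 24 h was Cited1 (0.83 ± 0.228; adjusted p = 0.0498). The lower count at 12 h was 1 without any of 8 arrays (those of day 2.5 other than control replicate 2, and the day 3 controls), and the higher count at 24 h was 0 without any array but the 24 h array of replicate 1.

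Foxf1, a factor of lateral plate and gut mesoderm that answers to hedgehog signals, gave different answers from its pair of probe sets. On the probe set with the higher mean the day 2.25 control read 4.68 and the 6 h array 4.58. Controls of day 2.5 read 4.84, 5.02 and 4.91 and the 12 h arrays 4.81, 4.84 and 4.84. On day 3 the controls read 5.47, 5.48 and 5.29 and the 24 h arrays 4.69, 4.98 and 5.26. Induced arrays lay below the controls at both times, by 0.03 or less between the closest arrays. The 24 h difference was -0.44 ± 0.149 (limma, adjusted p = 0.128), and it passed without the 24 h array of replicate 3 (-0.58, adjusted p = 0.0266) and after quantile normalization again (0.0228).

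The other Foxf1 probe set, examined after the values were seen, had the wider range. It read 4.25 and 4.02 on the arrays of day 2.25, control first. Controls of day 3 read 5.52, 6.15 and 6.39 and the 24 h arrays 4.78, 4.88 and 4.84, far below them. This probe set fell by 1.19 ± 0.215 at 24 h (limma, adjusted p = 0.00431). In controls it rose by 1.40 ± 0.215 from day 2.5, at 4.30, 4.92 and 4.65, to day 3 (limma, adjusted p = 0.00818), against 0.49 ± 0.149 for the main probe set (adjusted p = 0.259). At 12 h it read 4.28, 4.21 and 4.60, a difference of -0.26 (limma, adjusted p = 0.999). With the mean of both probe sets Foxf1 fell by 0.81 at 24 h (limma, adjusted p = 0.00414). Which part of the transcript each probe set covers is not given in the sources used here.

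**Figure D3:**
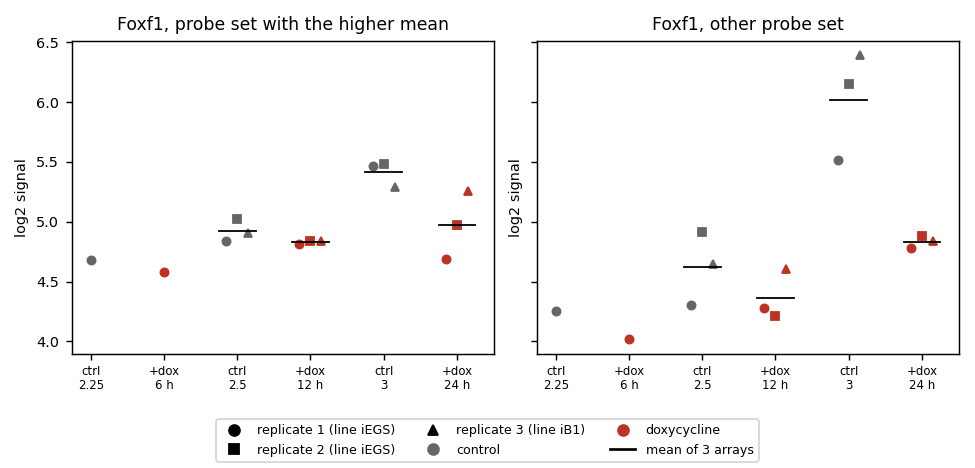
Log2 signal (vertical axis) of the 2 Foxf1 probe sets on every array, by group along the horizontal axis; points are arrays, shapes replicates and bars means of 3 arrays. Day 3 controls reach 5.29 to 5.48 on the probe set with the higher mean and 5.52 to 6.39 on the other, while the 24 h arrays lie at 4.69 to 5.26 and 4.78 to 4.88.

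Foxf1 and Foxc2 are close neighbours on chromosome 8 of GRCm38.p6, with Mthfsd between them, Fendrr on the side of Foxf1 and Foxl1 on that of Foxc2. At 24 h the differences were 1.02 for Foxc2, -0.44 for the main probe set of Foxf1, -0.01 for Mthfsd and 0.03 for Foxl1, and none of the 4 passed the test (limma, adjusted p = 0.101, 0.128, 0.979 and 0.951). Foxf2 and Gmds, near Foxc1 on chromosome 13, were at -0.01 and 0.08 when Foxc1 was at -0.68. Of 21 lateral plate and hedgehog genes measured, 2 were higher and 0 lower at 12 h, and 1 was higher and 4 lower at 24 h, with median differences of -0.0042 and -0.13. Bmp4, a ligand that patterns this mesoderm, rose by 1.64 ± 0.154 and 1.49 ± 0.154 (limma, adjusted p = 3.66e-05 and 2.20e-05). Tbx20, a heart factor, rose by 1.23 ± 0.167 at 12 h. Wnt5a fell by 1.80 ± 0.212 at 24 h, Gata4 by 1.60 ± 0.169 and Isl1 by 1.12 ± 0.233. Of all genes, 0.813% were called higher and 0.577% lower at 12 h, and 2.03% higher and 3.43% lower at 24 h. Between the control days 0.562% were called higher on day 3 and 0.196% lower. In controls 6 of the 21 were higher on day 3 than on day 2.5 and 0 lower, among them Hand1 (2.07 ± 0.306; limma, adjusted p = 0.00382), Gata4 (1.61 ± 0.169) and Wnt5a (1.34 ± 0.212).

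Foxo1, needed for vessel formation in the mouse embryo, read 7.13 in the day 2.25 control and 6.94 after 6 h. The day 2.5 controls read 7.07, 7.10 and 7.06 and the 12 h arrays 7.14, 6.98 and 6.96, which overlap (-0.05, with a 95% interval from -0.40 to 0.30). The day 3 controls read 6.78, 6.85 and 6.49 and the 24 h arrays 7.33, 7.31 and 6.75. The iEGS arrays at 24 h were above all controls and the iB1 array was among them. The difference of 0.42 ± 0.165 did not pass the test (limma, adjusted p = 0.205), and it did without the 24 h array of replicate 3 (0.61, adjusted p = 0.0224) and after quantile normalization again (0.50, adjusted p = 0.0448). Of 20 FOXO target and AKT pathway genes measured, 1 was higher and 0 lower at 12 h, and 1 was higher and 1 lower at 24 h. Over all genes 0.813% were called higher and 0.577% lower at 12 h, and 2.03% higher and 3.43% lower at 24 h. The 24 h counts of the list lie near those shares. The higher gene was Txnip, a redox regulator (0.75 ± 0.157 and 0.59 ± 0.157; limma, adjusted p = 0.0266 and 0.0402), and the lower was Sesn3 (-0.82 ± 0.184; adjusted p = 0.0149). The higher count at 12 h was 0 without the day 2.5 control of replicate 1 or 2 or the 12 h array of replicate 1 or 3. At 24 h it was 0 without any 1 day 3 control, without the 24 h array of replicate 1 or 2, without the 12 h array of replicate 1 or 3, and without the day 2.5 control of replicate 1. The lower count at 24 h was 2 with the replicate block or without the 24 h array of replicate 2, 3 without that of replicate 1, and 0 without the day 3 control of replicate 1.

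Of the other 34 forkhead genes measured, 1 was lower at 12 h, Foxi3, and 1 at 24 h, Foxp1, with 0 higher at either time. Over all genes 0.577% were called lower at 12 h and 3.43% at 24 h, and the share at 24 h is near that background. Their median differences were 0.0050 and -0.07. Foxi3, a factor of ear and skin appendage development in the mouse, read 7.34, 7.94 and 7.68 in the day 2.5 controls and 6.60, 6.63 and 6.90 at 12 h, without overlap (-0.95 ± 0.185; limma, adjusted p = 0.0165). The Foxi3 call was lost without the day 2.5 control of replicate 2 (adjusted p = 0.0838) or 3 (0.0815) and without the 12 h array of replicate 1 (0.0917) or 2 (0.0886). It was lost too without all arrays of replicate 2 (limma, adjusted p = 0.528) or 3 (0.174), and against a minimum change of 0.5. Foxp1, a factor of lymphocytes, heart and lung, read 6.79, 6.86 and 6.47 in the day 3 controls and 6.00, 6.18 and 5.86 at 24 h (-0.70 ± 0.149; limma, adjusted p = 0.0106). Its call was lost without the day 3 control of replicate 1 (0.0568) or 2 (0.0663). It was also lost without all arrays of replicate 1 (limma, adjusted p = 0.0557), 2 (0.158) or 3 (0.0831). The same held with array weights (0.0674), in the fit of the compared groups only (0.0709) and against a minimum change of 0.5. Foxp1 was also lower at 24 h than at 12 h of induction (-0.81 ± 0.149; adjusted p = 0.0118), where 1.25% of all genes were called lower. After 6 h Foxi3 stood at 6.84 against 7.91, the 1 gene of these 34 that was 2-fold apart. Over all genes 0.135% were that much lower at 6 h and 0.221% higher, and 1 array per group gives no replicate check.

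The effects at 12 h and 24 h differed by the test for 0 of the 9 genes, where 0.426% of all genes were called (limma; 1139 genes, Foxc1, Foxd3 and Foxh1 among them, had an unadjusted p under 0.05). At 6 h Foxd3 was at -0.70, Foxh1 at 0.58, Foxc1 at 0.45 and Foxa3 at -0.43 relative to the control array, and the differences of Foxo1 (-0.19), Foxc2 (0.11), Foxf1 (-0.11) and Foxa1 (-0.07) were smaller. For all 9 genes the sign at 6 h was that of the mean 12 h difference, though at 12 h Foxa2 and Foxd3 alone passed the test. Within replicate 1 the sign changed for Foxc2 (0.11 at 6 h, -0.08 at 12 h) and for Foxo1 (-0.19 and 0.07). Replicate 1 alone was sampled at 6 h.

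Markers of other cell types moved beside these genes. Some called markers were already counted in the lists above, so the counts are not separate. Among them were Cdh5, Tek, Kdr, Tie1 and Flt1 for endothelium, and Mixl1, Eomes, Mesp1 and Tbx6 for the streak. The all-gene shares were 0.813% higher and 0.577% lower at 12 h, and 2.03% higher and 3.43% lower at 24 h. Of 12 endothelial markers, 6 were higher at 12 h and 7 at 24 h, and 0 lower. Their summed linear signal was 1212 to 1705 on the 12 h arrays against 496 to 644 in controls, and 2225 to 3622 on the 24 h arrays against 686 to 812. Of 7 primitive streak markers, 4 were lower at 12 h and 6 at 24 h, with sums of 686 to 1051 against 1404 to 2240 and of 465 to 559 against 3255 to 3902.

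Among 11 markers of visceral endoderm, an extraembryonic tissue that also uses Foxa2 in the mouse, Sox7 was higher at 12 h and 24 h and Rbp4 lower at 24 h. Sox7 is also an endothelial gene. The sums of the 11 markers were 425 to 439 against 288 to 366 at 12 h and 690 to 943 against 392 to 429 at 24 h. Their median log2 difference was only 0.02 at 12 h and 0.15 at 24 h, while Sox7 rose by 1.87 and 3.92. How much of the sums Sox7 alone makes up was not tested. Among 12 fibroblast markers, which feeder cells express, 0 were called at 12 h and Thy1 was higher at 24 h. The fibroblast sums were 745 to 907 against 434 to 681 at 12 h and 582 to 736 against 470 to 567 at 24 h. Of the 8 markers of undifferentiated ES cells, Tbx3 alone was called, higher at both times, and the sums overlapped (609 to 995 against 517 to 1062, then 600 to 807 against 538 to 801). The part of these cell types in the differences of the forkhead genes was not tested.

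The genes whose signal followed a forkhead gene most closely over the 14 arrays were named by Pearson's r, among genes with a mean above the median of all genes. These arrays share the same groups, so a high r restates the group pattern. For Foxa2 they were Sema6a (r = 0.981), Igfbp3 (0.976), Fst (0.969) and Dclk1 (0.966), and over the 7 control arrays alone their r was 0.649, 0.821, 0.931 and 0.799. All 4 were called lower at both times; Igfbp3, an insulin-like growth factor binding protein, differed by -2.42 ± 0.224 at 12 h and -3.54 ± 0.224 at 24 h (limma, adjusted p = 3.23e-05 and 2.78e-07). For Foxd3 they were the chemokine gene Cxcl12 (0.950), Sall2 (0.943), Nefm (0.928) and G3bp2 (0.915), and within controls r was 0.887 to 0.967. Cxcl12 fell by 1.27 ± 0.167 at 12 h and by 0.92 ± 0.167 at 24 h (limma, adjusted p = 6.67e-04 and 0.00339).

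For Foxc1 the closest genes were Fam122a (0.896), Robo1 (0.892), Niban3 (0.877) and Cx3cl1 (0.854), and 0 of the 4 passed the test at 24 h. Robo1, a guidance receptor, was at -0.54 ± 0.155 there (limma, adjusted p = 0.0640). For Foxc2 they were Fndc3b (0.921), Mns1 (0.915), Ddah1 (0.901) and Efcab14 (0.901), with r of 0.469 to 0.814 over the control arrays. Ddah1, an enzyme that removes inhibitors of nitric oxide synthesis, rose by 0.89 ± 0.169 at 24 h (limma, adjusted p = 0.00473), while Fndc3b, Mns1 and Efcab14 did not pass. Among the 9 genes themselves the highest r was between Foxa2 and Foxd3 (0.796), then Foxa1 and Foxf1 (0.730) and Foxa1 and Foxa2 (0.628), and the lowest was between Foxf1 and Foxo1 (-0.642).

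**Figure D4:**
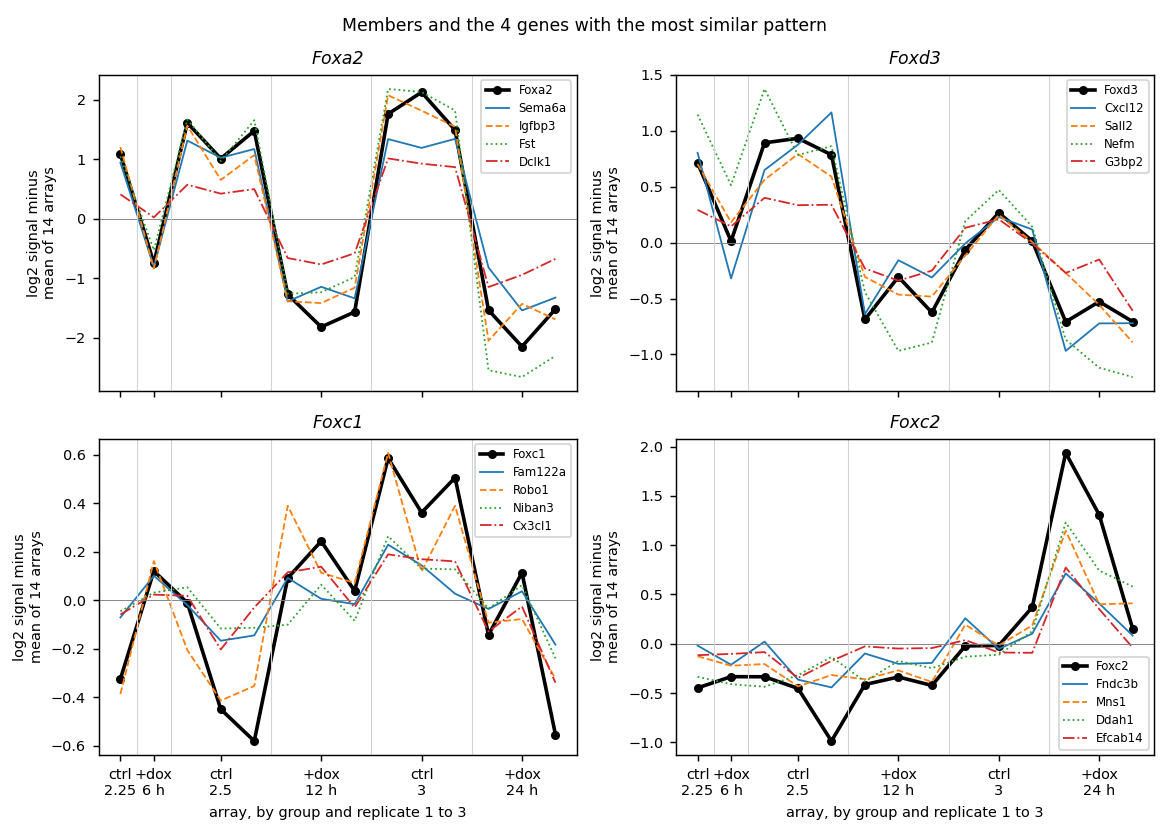
Log2 signal minus the gene's own mean over 14 arrays (vertical axis) for Foxa2, Foxd3, Foxc1 and Foxc2 in black and for the 4 genes with the most similar pattern, along the arrays by group and replicate. Lines join arrays for reading only; Foxa2 and its 4 genes drop on all induced arrays, whereas Foxc2 and its 4 genes peak on the first induced 24 h array.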

How the data were processed

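RNA of 14 embryoid body samples was amplified and hybridised to Affymetrix arrays. The deposited log2 signals were made by the authors in Affymetrix Expression Console by RMA (source: per the submitters' processing notes; versions not given in the sources used here). The method brings arrays towards the same distribution, which reduces shifts common to most genes, and it compresses low signals. The deposited values still differed between arrays, with medians from 5.11 to 5.35 and SDs over genes from 1.91 to 2.23. Arrays carry no counts, so their number limits the precision.

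The platform annotation gave 1 symbol to 21789 of 35556 probe sets and several to 1621, and did not list 12146; identifiers of 21698 were found in RefSeq (GRCm38.p6), which changed 0 symbols. For 999 genes with several probe sets the one with the highest mean was used, which left 19938 genes. Groups came from the labels. Group means were fitted with lmFit and eBayes of limma 3.58.1 (R 4.3.3) to the 12 arrays of the groups with 3 replicates (8 residual and 6.05 prior degrees of freedom), with Benjamini-Hochberg adjustment over all genes and a threshold of 0.05. The day 2.25 groups had 1 array each and no test. The fit was tested on simulated data.

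The design text speaks of independent experiments, without saying whether cultures were separate, so p-values measure the spread between these samples. Same-numbered control and induced arrays deviated together (r = 0.573, 0.344 and 0.262 on day 2.5; 0.517, 0.158 and 0.261 on day 3), which was read as pairing by number, although control replicate 2 of day 3 had r = 0.375 with induced replicate 3. Values with the replicate block stand beside a result where it changed the call of a forkhead gene or moved a count by over 1.5 times.

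The genes, the gene lists and the cell type markers were chosen with earlier results of these data known. Named by rule were the 9 genes, at most 4 called members of each list per comparison, other forkhead genes called at 12 h or 24 h, and for each gene with a call the 4 genes with the highest r over 14 arrays among genes above the median mean. Cited1, Sox7, Rbp4, Thy1 and Nes, and Tbx3 as a marker, Dkk1, Cxcr4 and Zic5 were named after their values were seen. The alternative fits used a replicate block, the line as covariate, the compared groups only, quantile normalization again, median centring, dim genes (below the 40th percentile) left out, the mean of probe sets, every probe set on its own, array weights, a test against a log2 change of 0.5, and leaving out arrays. Promoter sequences are RefSeq's, and gene order is that of GRCm38.p6; no build is named for the array itself.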

Additional observations from a re-analysis of the deposited data

Results flagged for a closer look

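For 21 genes of the lists set beside the forkhead genes, the induction effect itself differed between 12 h and 24 h by the test of that difference (24 h effect minus 12 h effect, log2, limma adjusted p under 0.05). None of the 9 forkhead genes was among them. In the anterior streak and endoderm list the differences were -4.37 for Cer1, -3.51 for Lhx1, -2.19 for Eomes, -2.11 for Mixl1, -2.04 for Dkk1, -1.62 for Otx2, -1.55 for Cxcr4 and -1.40 for Gata4. In the Nodal list they were -2.83 for Cfc1, -1.96 for Fst and -1.53 for Tdgf1. Among pluripotency genes they were -2.70 for Cdh2, -1.85 for Fgf5 and -1.08 for Zic5, and among mesoderm genes -2.56 for Mesp1, -1.98 for Pdgfra, -1.40 for Mesp2 and -1.60 for Wnt5a. The endothelial genes Tek (2.58), Cdh5 (2.26) and Fli1 (1.42) had the opposite sign. The adjusted p ranged from 1.13e-04 for Cfc1 to 0.0447 for Zic5. The day 2.5 and day 3 effects use different controls, and 12 of these 21 genes were also called between the day 2.5 and day 3 controls, all 12 of them higher on day 3.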

How the results depend on the processing

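The calls of Foxa2 at 12 h and 24 h and of Foxd3 at 12 h held in every alternative fit that was run. The number of the 9 genes called at 12 h was 2, and 4 with array weights, whose iteration did not reach its tolerance. At 24 h it was 3, and 5 with the replicate block or quantile normalization again, 1 with array weights or in the test against a minimum change, and 1 to 5 when arrays were left out. The 5 were not the same genes in each of these fits. For the change of the effect it was 0, and 1 with array weights or the replicate block, and 0 to 1 when arrays were left out. For the control course it was 1, and 4 with array weights, 2 with the line as a covariate, the mean of probe sets or the replicate block, 0 in the test against a minimum change, and 0 to 2 when arrays were left out. For the induced course it was 1, and 0 with array weights, dim genes left out (which removes Foxc2), the compared groups only, quantile normalization again or the test against a minimum change, and 0 to 1 when arrays were left out. The cause of these shifts was not tested, other than that fewer arrays or fewer genes were used where stated. Over all genes the replicate block moved the counts from 277 to 441 at 12 h, from 1088 to 1565 at 24 h, from 85 to 163 for the change, from 151 to 344 for the control course and from 360 to 742 for the induced course. In the lists it moved by at most 1.5 times the higher FOX:ETS genes (8 to 9 at 12 h, 9 to 11 at 24 h), the lower pluripotency genes (6 to 8 at 12 h), the lower Nodal genes (8 to 9 at 24 h) and the lateral plate genes (higher 2 to 3 at 12 h, lower 4 to 5 at 24 h). Over all genes, leaving out arrays gave 80 to 366, 392 to 1889, 2 to 109, 17 to 238 and 21 to 727. Array weights gave 1885 at 12 h and 467 at 24 h, the compared groups only 669 at 24 h, and the test against a minimum change 88 and 315. Reversals touched only differences near 0 that passed no test. When arrays were left out, the induced course ranged from -0.2053 to 0.0968 for Foxa1, from -0.3147 to 0.0255 for Foxa2 (0.0711 with array weights), from -0.1822 to 0.0076 for Foxd3 and from -0.0075 to 0.2941 for Foxo1. For Foxa3 the control course ranged from -0.3944 to 0.0908 and the change of effect from -0.2370 to 0.1291 (0.0093 with array weights). Rescaling the arrays moved the median of all genes by less than 0.1 in log2. An interaction of line with induction, added after seeing the data, was fitted as well and is not used, since iB1 has 1 array in each group.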
